A study of Mus musculus with 6 samples.

Results

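The large ribosomal subunit proteins were examined in RNA sequencing of the embryonic mouse cortex. The members are the genes whose symbol is Rplp0, Rplp1 or Rplp2, or Rpl with a number and at most the ending a, l or l1, which leaves out pseudogenes. This rule found 51 of the 17348 genes in the table. Rpl36al and Rpl37rt fall outside it. Members were chosen by name and not by any measured value.

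The libraries came from the cortex at E13.5, with 3 from WT and 3 from cKO embryos. Ybx1 encodes an RNA-binding protein with a cold shock domain, and the comparison asks which transcripts differ when it is deleted. In the cKO, Nestin-Cre, which acts in neural progenitors and their progeny, removed exons 3 to 8 of Ybx1 fl/fl alleles. The labels call the controls WT and the study describes control littermates, elsewhere defined as Ybx1 fl/fl without Cre, so whether these controls carried the floxed alleles could not be settled. Mice were made on the C57BL/6J background, and the labels do not say how many embryos went into a library. Library totals were close, from 15907486 to 16282921 estimated counts. Levels compared between libraries are given in CPM, counts scaled to library size and by TMM factors, and levels compared between genes in TPM, which are also corrected for transcript length.

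Each ribosome joins a small subunit, which reads the mRNA, to a large subunit, in which ribosomal RNA forms the peptide bond and the growing chain leaves through a tunnel. Most large subunit proteins are needed in equal number per ribosome, and their genes are active in every cell, with high demand in dividing progenitors. Their mRNAs belong to the TOP class, which begin with a C followed by a run of pyrimidines and whose translation follows mTOR signalling.

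The start of these genes is shown because the pyrimidine run is what places the members in 1 regulatory class. RefSeq promoter windows (GRCm38.p6), from 250 bases before to 50 after each annotated start, were matched for 39 of the 51 members. The windows of 30 bases below are written 5′ to 3′ on the strand that reads like the RNA, with the matched letters in capitals. The first 7 hold CTTTC close to the start and the last 2 hold CCGGAAG, the core letters of an ETS family site.
Rplp2, chr7:141447639-141447668, plus strand: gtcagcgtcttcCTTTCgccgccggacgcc
Rpl38, chr11:114668568-114668597, plus strand: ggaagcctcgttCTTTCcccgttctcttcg
Rpl35, chr2:39005112-39005141, minus strand: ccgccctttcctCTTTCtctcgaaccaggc
Rpl18, chr7:45718062-45718091, plus strand: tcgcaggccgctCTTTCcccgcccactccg
Rpl12, chr2:32961710-32961739, plus strand: ccgtcttttcggCTTTCggctcggaggagg
Rpl13, chr8:123102327-123102356, plus strand: gacgtcacttccCTTTCgcctgattttgat
Rpl5, chr5:107900498-107900527, plus strand: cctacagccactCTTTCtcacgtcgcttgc
Rpl11, chr4:136053369-136053398, minus strand: aggccacggggCCGGAAGtctccctctctc
Rpl41, chr10:128549206-128549235, minus strand: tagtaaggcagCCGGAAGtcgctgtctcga
With the first transcribed base as 1, the match in Rplp2 and Rpl38 began at 1, that in Rpl35 at 3, that in Rpl18 at 4 and that in Rpl12 at 11. The matches in Rpl13, at -11, and Rpl5, at -18, lay before the annotated start and so outside the annotated transcript.

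CTTTC on the strand that reads like the RNA, within 50 bases on either side of a start, was found in 24 of the 39 members, or 61.5%. The share was 33.3% for small subunit genes and 12.6% for the 13699 genes of the table with a promoter entry. On the opposite strand the same letters were found in 12.8% of members and 12.1% of all genes. The second motif, CCGGAAG on either strand anywhere in the 300 bases, was found in 38.5% of members, 45.8% of small subunit genes and 16% of all genes. A match of the first motif can overlap one of the second only by its last C, and a match describes the sequence and is not a measured site.

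The deleted gene was lower in each cKO library. Ybx1 was at 1021, 527 and 1219 CPM in WT 1, 2 and 3, and at 83.0, 117 and 147 CPM in cKO 1, 2 and 3. The log2 fold change of cKO against WT was -3.00, and the groups did not overlap, although WT 2 lay well below the other 2 WT libraries. By edgeR's quasi-likelihood test, with p-values adjusted by Benjamini and Hochberg across the 13340 genes tested, its adjusted p was 0.128, and DESeq2 gave an adjusted p of 5.46e-10. Without WT 2 the adjusted p in edgeR was 0.0206. Markers of radial glia and cortical neurons were present in all libraries. Markers of skin and meninges summed to 727 CPM in cKO 3 and to between 8.30 and 16.7 CPM in the others, where up to 5 of the 10 markers were at 0. The keratin and collagen genes, Dcn and Lum were higher in cKO 3. Foxc1, at 18 counts there and 14 to 40 in the others, and Ranbp3l, at 1 count there, were not. Interneuron markers summed to between 159 and 219 CPM in WT and between 230 and 251 CPM in cKO. The part of these markers in the results was not tested.

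Of the 51 members, 49 passed a filter on low counts. Large subunit transcripts were among the most abundant of the cortex. By mean TPM, 32 members were among the 100 highest genes and 44 among the 200 highest, and 40 were above 1000 TPM. Together they made up 7.64%, 9.51% and 8.79% of all TPM in WT 1, 2 and 3, and 7.57%, 8.68% and 8.69% in cKO 1, 2 and 3. The ranges of WT and cKO overlapped. In cortex tissue as a whole, fewer cells of a type and less RNA per cell cannot be told apart.

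**Figure D1:**
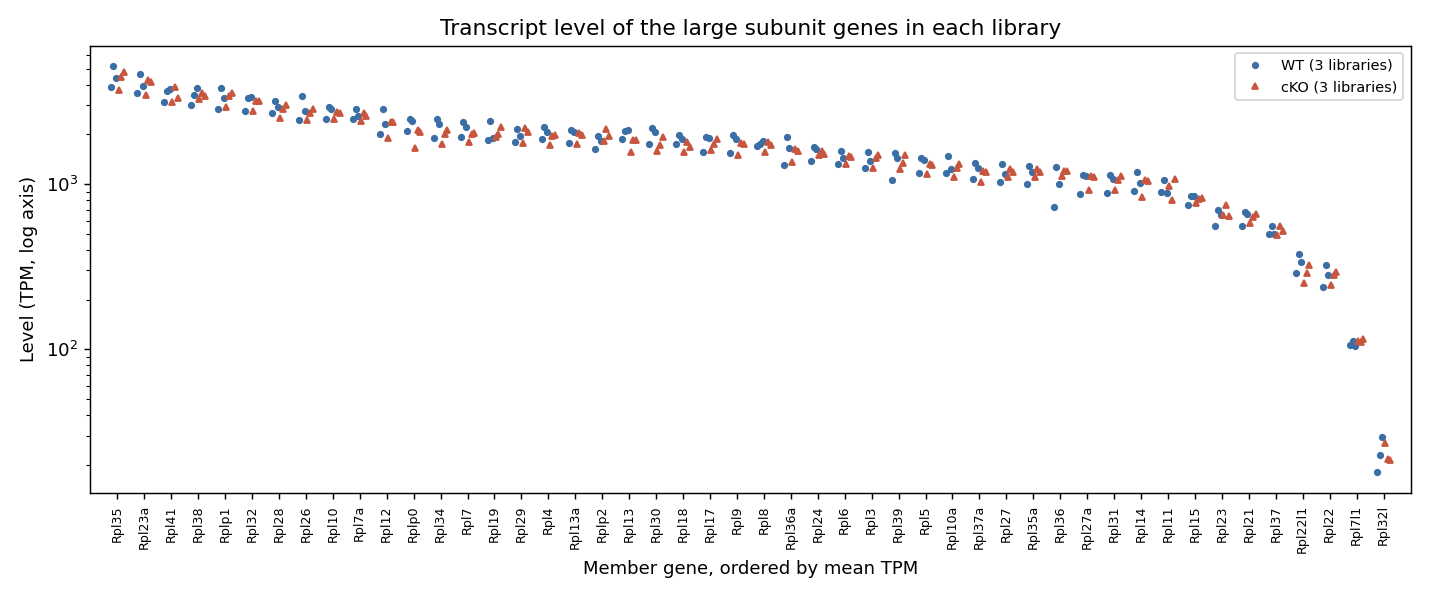
Level in TPM (log axis) of 48 of the 49 tested members in each library, ordered by mean TPM, with circles for 3 WT and triangles for 3 cKO libraries. Points of both genotypes overlap for most genes, from Rpl35 near 4385 TPM to Rpl32l near 23.4 TPM.

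Rpl35, at the rim of the exit tunnel, had the highest level, at 3841, 5165 and 4380 TPM in WT 1, 2 and 3 and 3732, 4443 and 4747 TPM in cKO 1, 2 and 3. Rpl23a, which contacts the chain where it leaves the tunnel, came next at 3562, 4606 and 3937 TPM in WT and 3475, 4249 and 4142 TPM in cKO. The ranges of these neighbours overlapped across libraries, but within each of the 6 libraries Rpl35 was the higher. Rpl41, the shortest ribosomal protein, was at 3125, 3668 and 3765 TPM in WT and 3145, 3889 and 3332 TPM in cKO. Rpl38, whose loss in mice disturbs the axial skeleton, was at 3012, 3455 and 3790 TPM in WT and 3259, 3547 and 3430 TPM in cKO. For all 4 of these genes the WT and cKO ranges overlapped, and their log2 fold changes lay between -0.03 and 0.06. Rpl38 had the shortest effective length of the members, 61.7 bases, so its TPM is sensitive to how that length was estimated.

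Levels were not equal across members. The 4 lowest of the tested members were Rpl22l1, with a mean of 312 TPM, Rpl22 with 277 TPM, Rpl7l1 with 110 TPM and Rpl32l with 23.4 TPM. Of these, Rpl22l1 and Rpl7l1 are paralogs of other members. Rpl32l, named after the member Rpl32, was annotated as protein coding and was not on the paralog list. It had only 41 to 71 counts per library. The table's values of Rpl23, Rpl31, Rpl37, Rpl5 and Rplp2 were fractional in every library, as happens when reads are split between similar sequences. Ribosomal protein genes have many processed pseudogenes, so the level of a single member is uncertain to that extent.

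No member changed with genotype by the test. At an adjusted p under 0.05, 0 of 49 members were higher and 0 lower in cKO in edgeR, where 0% of all tested genes passed in either direction. DESeq2 and limma-voom also called 0 members, beside 2 of 13340 genes higher and 2 lower in DESeq2 and 0 in limma-voom. At an unadjusted p under 0.05, edgeR counted 0 members higher and 0 lower, beside 1.75% of all genes higher and 1.81% lower. In 0 members did the 3 cKO libraries all lie above or all below the 3 WT libraries, beside 4.21% of all genes above and 4.83% below. For a single value, 3 against 3 libraries cannot give an exact permutation p under 0.1.

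The fitted differences were small. The log2 fold change was within 0.1 of zero for 36 members, under -0.1 for 11 and above 0.1 for 2. It was negative for 36 and positive for 13, with a median of -0.04, beside 0.0019 over all tested genes. Of 842 non-ribosomal genes at or above the lower quartile of the members' CPM, 550 were negative and 292 positive, with a median of -0.03. Of 313 non-ribosomal genes no longer than the median member by effective length, 80 were negative and 233 positive, with a median of 0.08. A slightly negative median was thus also found in other genes of high level, but not in other short genes. The 95% interval crossed 0 for each of the 49. For 48 it also lay inside a change of 1.5 times either way, as it did for 78.2% of all tested genes. Rpl36 was the exception, with an upper bound of 0.71 on the log2 scale.

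**Figure D2:**
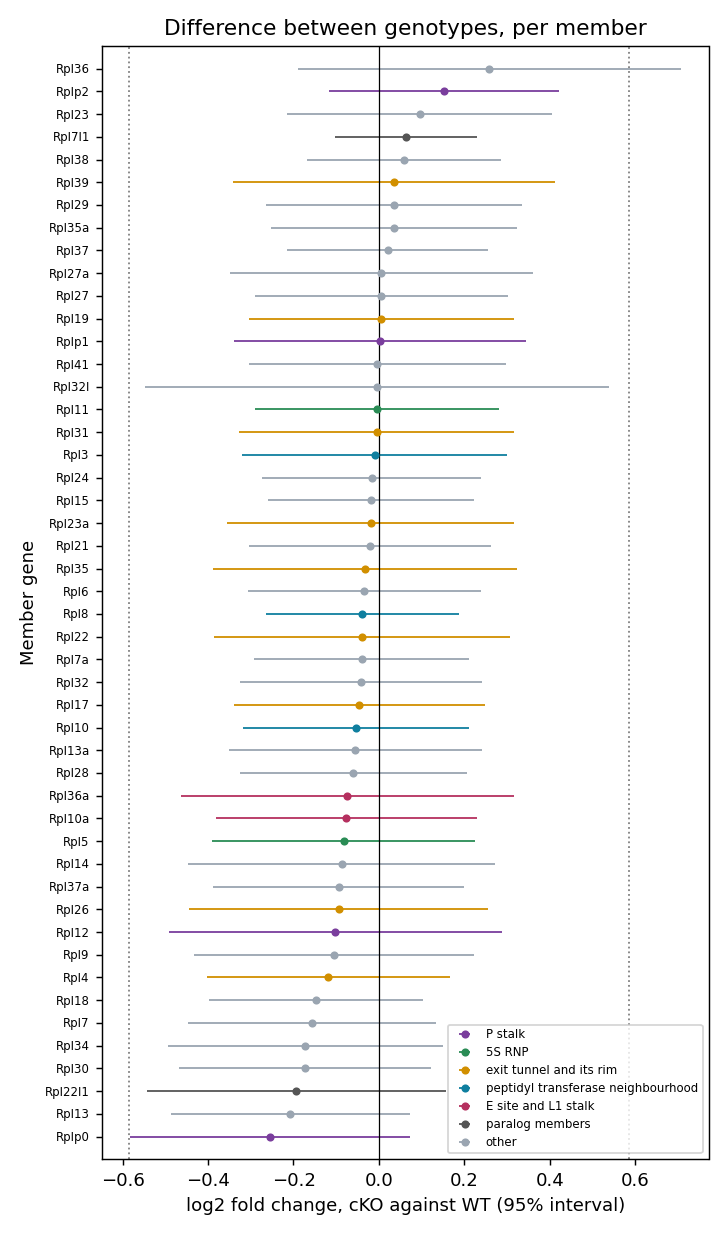
Log2 fold change of cKO against WT for 48 of the 49 tested members, with the 95% interval from edgeR and colours for the part of the subunit. Dotted lines mark 1.5-fold, and each interval crosses 0, with Rplp0 lowest at -0.25 and Rpl36 highest at 0.26.

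The P stalk, which recruits the elongation factors, held members on either side of 0, among them the lowest log2 fold change of all members. Rplp0, which forms the base of the stalk, was at 1032, 1317 and 1251 CPM in WT 1, 2 and 3 and at 824, 1131 and 1061 CPM in cKO 1, 2 and 3. Its cKO libraries lay toward the low end, but cKO 2 and cKO 3 were above WT 1. The log2 fold change was -0.25 with a standard error of 0.14, and its unadjusted p of 0.111 in edgeR was the lowest of the members (adjusted p = 0.99998). Rplp2, which is carried on Rplp0 as a pair with Rplp1, was at 134, 174 and 158 CPM in WT and 155, 192 and 171 CPM in cKO, a log2 fold change of 0.15 ± 0.12 (SE). Rplp1 was at 247, 360 and 304 CPM in WT and 260, 324 and 327 CPM in cKO, a log2 fold change of 0.0021 ± 0.15 (SE). Rpl12, which sits beside Rplp0 at the stalk base, was at 330, 505 and 399 CPM in WT and 317, 422 and 411 CPM in cKO, a log2 fold change of -0.10 ± 0.17 (SE). In all 4 stalk genes the groups overlapped.

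Rpl5 and Rpl11 bind the 5S ribosomal RNA and, when free of ribosomes, the p53 regulator Mdm2. Rpl5 was at 579, 800 and 727 CPM in WT and 590, 722 and 677 CPM in cKO, with a log2 fold change of -0.08 ± 0.13 (SE). Rpl11 was at 282, 361 and 297 CPM in WT and 309, 275 and 353 CPM in cKO, with a log2 fold change of -0.0046 ± 0.12 (SE). For both genes the WT and cKO libraries overlapped. The 9 genes of the exit tunnel and its rim had a median log2 fold change of -0.03, with 2 positive and 7 negative. The 3 genes near the peptidyl transferase centre (Rpl3, Rpl8 and Rpl10) had a median of -0.04, and the 2 at the E site and L1 stalk (Rpl10a and Rpl36a) of -0.07.

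After Rplp0, the members with the lowest unadjusted p were Rpl13, Rpl18, Rpl30 and Rpl36, all of which bind the ribosomal RNA of the subunit. Rpl13 was at 423, 517 and 516 CPM in WT and 359, 458 and 444 CPM in cKO, a log2 fold change of -0.21 ± 0.12 (SE) with an unadjusted p of 0.125 in edgeR. Rpl18 was at 320, 397 and 363 CPM in WT and 293, 359 and 323 CPM in cKO, a log2 fold change of -0.15 ± 0.11 (SE). Rpl30 was at 198, 269 and 248 CPM in WT and 187, 215 and 231 CPM in cKO, a log2 fold change of -0.17 ± 0.13 (SE). In each of these 3 genes the lowest value was cKO 1 and WT 1 lay within the cKO range. Rpl36 was at 44.8, 83.3 and 63.6 CPM in WT and 70.6, 80.7 and 78.1 CPM in cKO, a log2 fold change of 0.26 ± 0.19 (SE). Its WT libraries spanned more than its cKO libraries, from WT 1 at the bottom to WT 2 at the top.

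Some large subunit proteins have paralogs that can take their place in the ribosome. Rpl3l, the heart and skeletal muscle form of Rpl3, had 0 counts in 5 libraries and 1 in cKO 3. Rpl39l, a form of Rpl39 best known from testis, had 0 counts in 5 libraries and 3 in cKO 3. These were the 2 untested members, and a count of 0 allows up to about 0.19 CPM per library for counting error only. Their parents were plainly detected. Rpl3 was at 615, 842 and 720 CPM in WT and 624, 765 and 773 CPM in cKO, and Rpl39 at 77.0, 122 and 109 CPM in WT and 92.2, 107 and 116 CPM in cKO. Rpl10, a late-joining protein encoded on X, was at 578, 748 and 705 CPM in WT and 594, 696 and 666 CPM in cKO. None of these 3 parents was separated by genotype.

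Rpl22l1 and Rpl22 form a pair in which Rpl22 protein is known to limit its paralog's mRNA. Rpl22 was at 203, 299 and 256 CPM in WT and 211, 262 and 264 CPM in cKO. Rpl22l1 was at 27.7, 38.9 and 33.7 CPM in WT and 24.6, 30.3 and 32.9 CPM in cKO, a log2 fold change of -0.19 ± 0.15 (SE). The ratio of their CPM within a library was 0.133 ± 0.0034 (SD, n = 3) in WT and 0.119 ± 0.0049 (SD, n = 3) in cKO. The ratio was higher in every WT than in every cKO library, and since it was chosen after its values were seen no test was made. Rpl7 was at 571, 769 and 700 CPM in WT and 543, 653 and 635 CPM in cKO, a log2 fold change of -0.16 ± 0.13 (SE). Rpl7l1, which works in the assembly of the subunit in the nucleolus, was at 112, 128 and 118 CPM in WT and 120, 127 and 127 CPM in cKO, a log2 fold change of 0.06 ± 0.07 (SE).

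What the members shared was their order across libraries. The summed CPM of the members was 16433 in WT 1, 21898 in WT 2 and 19833 in WT 3, and 16345 in cKO 1, 19984 in cKO 2 and 19328 in cKO 3. The low library of each genotype was the one numbered 1, and the groups overlapped almost fully. The mean was 19388 ± 2760 CPM (SD, n = 3) in WT and 18552 ± 1940 CPM (SD, n = 3) in cKO, so the difference of -835 CPM was smaller than the spread within either genotype.

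The shift between libraries ran through nearly every member. WT 1 was the lowest WT library for all 49 tested members, as it was for 40.4% of all tested genes. Library cKO 1 was the lowest cKO library for 47 members, beside 39.6% of all genes. WT 2 was the highest WT library for 45 members, beside 36.1% of all genes. As a difference in log2 CPM from each gene's mean over all libraries, the median member was at -0.22, 0.22 and 0.08 in WT 1, 2 and 3 and at -0.20, 0.09 and 0.04 in cKO 1, 2 and 3. The median SD within a genotype was 0.20 in log2 CPM for members and 0.14 for all tested genes.

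**Figure D3:**
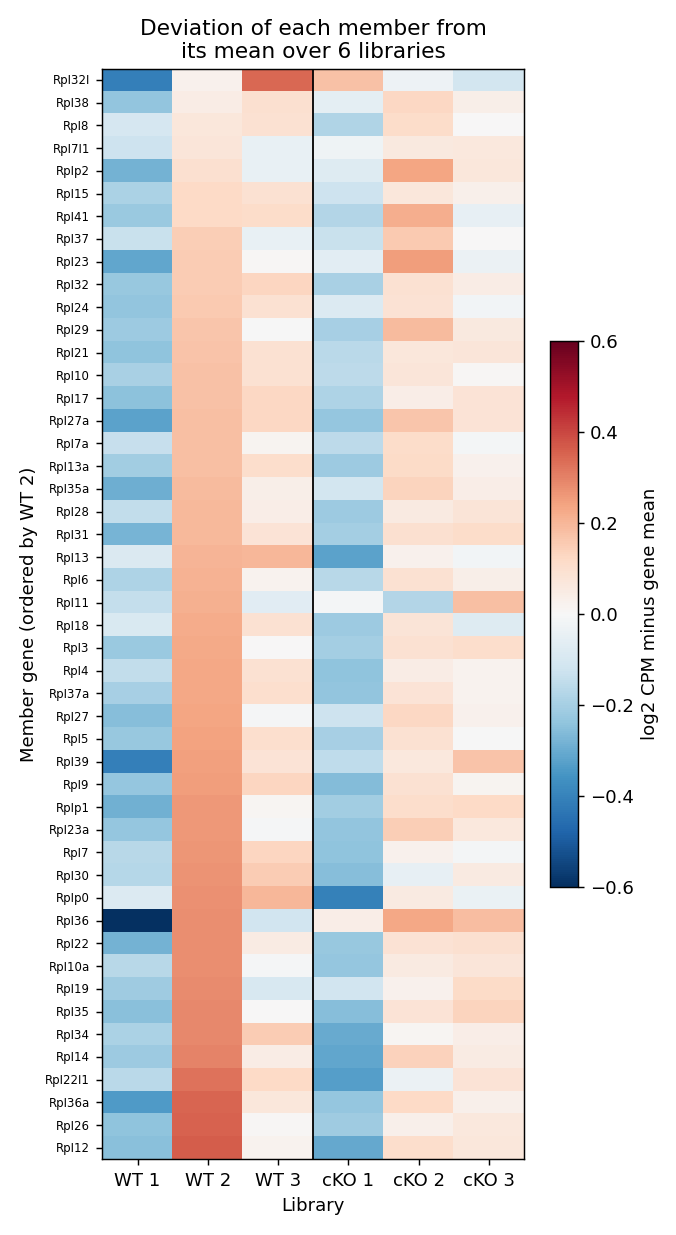
Log2 CPM of 48 of the 49 tested members (rows) in each library (columns) minus the gene's mean over all libraries, with red for higher and blue for lower. The columns WT 1 and cKO 1 are blue for nearly every gene, with medians of -0.22 and -0.20, and WT 2 is red for every gene shown.

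Small subunit genes followed the same order, with summed CPM of 10525, 14125 and 12986 in WT 1, 2 and 3 and 10055, 12600 and 12222 in cKO 1, 2 and 3. Of its 32 genes, 0 passed at an adjusted p under 0.05 in edgeR. Without adjustment 0 were higher, beside 1.75% of all tested genes, and 2 were lower, beside 1.81%. The 2 lower genes included Rpsa, also known as the laminin receptor, at 1155, 1558 and 1487 CPM in WT and 872, 1236 and 1143 CPM in cKO. The ratio of large to small subunit CPM was 1.56, 1.55 and 1.53 in WT 1, 2 and 3 and 1.63, 1.59 and 1.58 in cKO 1, 2 and 3. Its mean was 1.55 ± 0.017 (SD, n = 3) in WT and 1.60 ± 0.024 (SD, n = 3) in cKO. The groups did not overlap, and no test was made of this ratio, which was chosen after its values were seen. The small subunit sum includes Rpsa, so the ratio also carries the difference in that gene. It need not describe the small subunit as a whole.

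Other TOP mRNAs, such as those of the elongation factors, showed the pattern too, with median deviations of -0.15, 0.15 and 0.10 in WT 1, 2 and 3 and -0.18, 0.07 and 0.02 in cKO 1, 2 and 3. Of these 19 genes, 0 passed at an adjusted p in edgeR and 2 were lower at an unadjusted p. Eef2, which moves the ribosome along the mRNA, was at 2420, 2302 and 2489 CPM in WT and 1749, 1985 and 1874 CPM in cKO. Its groups did not overlap, beside 4.83% of all tested genes that were lower without overlap. Eef1g, a subunit of the factor that reloads eEF1A, was at 620, 667 and 692 CPM in WT and 456, 533 and 562 CPM in cKO. Of 33 assembly factors of the large subunit, 0 passed at an adjusted p in edgeR, and without adjustment 2 were higher and 0 lower. Those 2 were Sbds, which releases the antiassociation factor Eif6 from new subunits, and Eif6 itself. Sbds was at 28.3, 34.9 and 30.4 CPM in WT and 35.8, 37.5 and 39.5 CPM in cKO, and Eif6 at 47.6, 47.1 and 47.6 CPM in WT and 51.5, 56.5 and 52.8 CPM in cKO. Of 49 large subunit genes of the mitochondrial ribosome, 0 passed at either p in edgeR, with a median log2 fold change of 0.05. Of 10 regulators of TOP mRNAs, 0 passed at an adjusted p in edgeR, and without adjustment 1 was higher and 2 were lower. Beside the unadjusted counts of these lists, 1.75% of all tested genes were higher and 1.81% lower.

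Several other lists are given beside the members, whether or not they followed the same order across libraries. Radial glia markers (10 genes) summed to 2141, 2750 and 2824 CPM in WT 1, 2 and 3 and 2051, 2998 and 2668 CPM in cKO 1, 2 and 3, so WT 1 and cKO 1 were again the low libraries. Intermediate progenitor markers (7 genes) did not follow that order, at 1529, 1267 and 1376 CPM in WT and 1405, 1380 and 1149 CPM in cKO. Cortical neuron markers (10 genes) ran the other way from the members, at 6031, 5157 and 5673 CPM in WT and 6273, 5040 and 4984 CPM in cKO. Erythroid markers (12 genes) summed to 881, 765 and 644 CPM in WT and 1122, 845 and 692 CPM in cKO. The median effective length was 500 bases for members and 2775 for all tested genes, and 313 other genes no longer than the median member had median deviations of -0.18, 0.05 and -0.0038 in WT and -0.07, 0.12 and 0.07 in cKO. The part of cell makeup and of transcript length in the shared order was not tested.

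**Figure D4:**
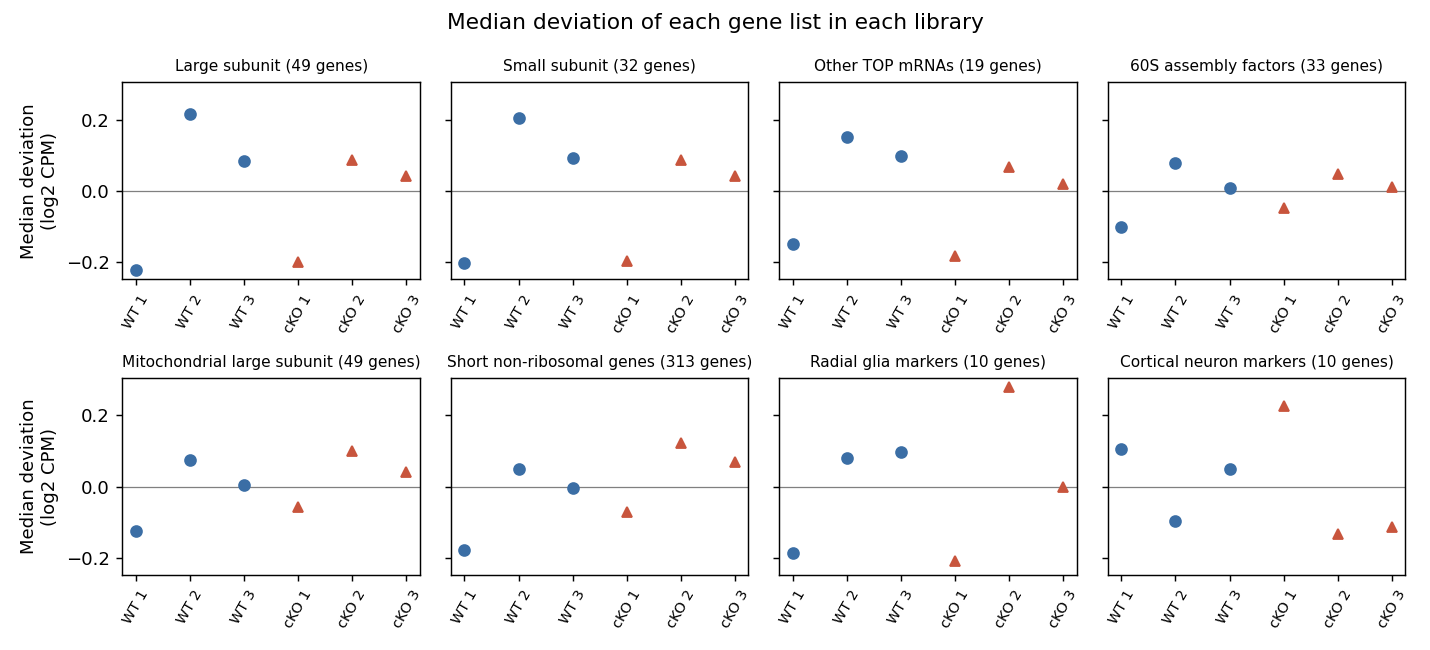
Median deviation of each gene list from its genes' means (log2 CPM) in each library, with circles for WT and triangles for cKO. The large and small subunit panels run in parallel, with WT 1 and cKO 1 near -0.2, and the cortical neuron panel runs opposite to them.

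Because the members moved together, each was also expressed as a share of their summed CPM, a scaling chosen after the shared order was seen. On that scale the groups did not overlap for 11 of 49 members, 4 of them higher and 7 lower in cKO. Under the same scaling 5.17% of all tested genes were higher and 0.817% lower without overlap. This scaling takes the shared order out of the members and puts its inverse into other genes. The shares of all genes under it are therefore not a like background for the members. On the TMM scale 4.21% of all tested genes were higher and 4.83% lower without overlap. The lower members were Rplp0, Rpl13, Rpl18, Rpl30, Rpl34, Rpl4 and Rpl7. The higher members were Rplp2, Rpl36, Rpl29 and Rpl35a. Under this scaling 0 members passed at an adjusted p under 0.05 in edgeR. Rpl36 alone passed at an unadjusted p, beside 1.25% of all genes higher and 0.157% lower, its log2 fold change being 0.35 and its adjusted p 0.99986 in edgeR.

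The share of Rplp0 was 6.28%, 6.01% and 6.31% in WT 1, 2 and 3 and 5.04%, 5.66% and 5.49% in cKO 1, 2 and 3. That of its partner Rplp2 was 0.814%, 0.796% and 0.796% in WT and 0.946%, 0.962% and 0.885% in cKO. So the transcript of the stalk's base protein took a smaller and Rplp2 a larger share of the member total in every cKO library. For the other stalk genes, Rplp1 and Rpl12, the shares overlapped between groups. Rpl7 varied little within groups, at 3.48%, 3.51% and 3.53% in WT and 3.32%, 3.27% and 3.29% in cKO. Rpl36 was at 0.273%, 0.381% and 0.321% in WT and 0.432%, 0.404% and 0.404% in cKO. With each list scaled to its own sum, the groups did not overlap for 22.4% of large subunit, 37.5% of small subunit, 42.1% of other TOP, 21.2% of assembly factor and 10.2% of mitochondrial large subunit genes. Over all tested genes on the TMM scale the share was 9.04%, close to that of the mitochondrial genes. That value comes from another scaling, so it is not a like background for the lists scaled to their own sums. The small subunit and other TOP shares were above that of the large subunit.

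**Figure D5:**
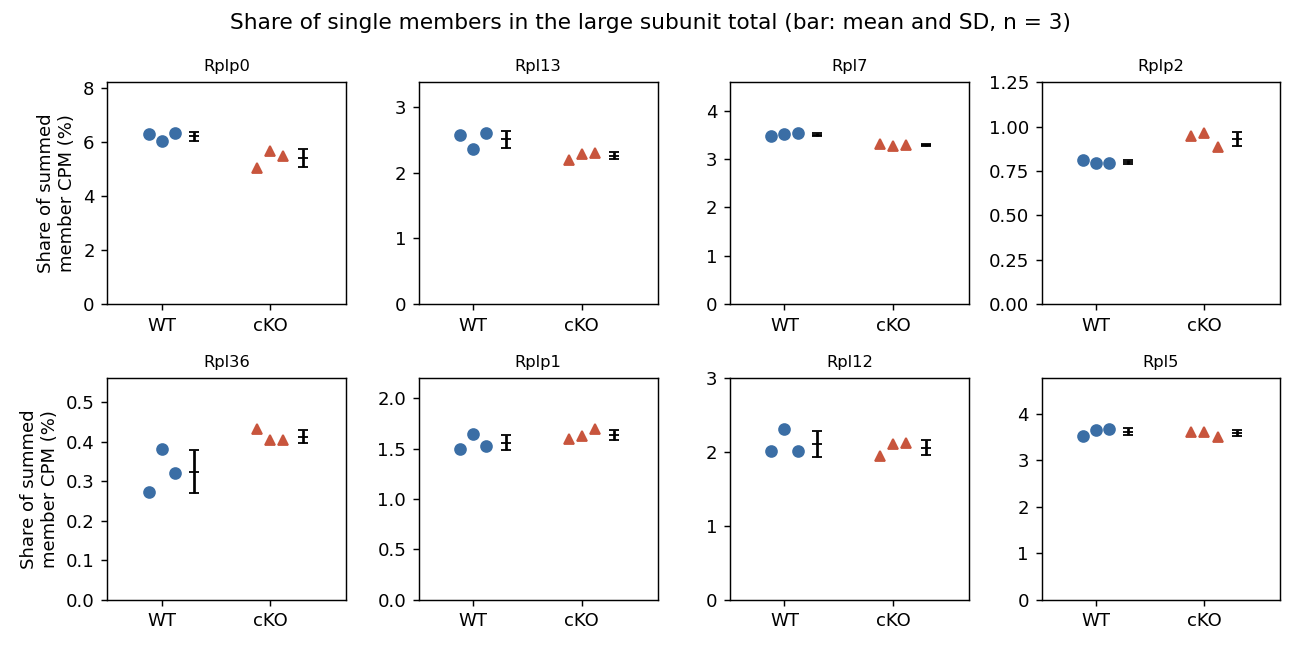
Share of 8 members in the summed member CPM (percent, axes from 0), with circles for WT, triangles for cKO and bars for the mean and SD of 3 libraries. Rplp0, Rpl13 and Rpl7 were lower and Rplp2 and Rpl36 higher in every cKO library, while the groups overlapped for Rplp1, Rpl12 and Rpl5.

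The counts by genotype turned on single libraries. Without WT 1, the lowest of the WT libraries for all 49 members, 18 members (36.7%) had both remaining WT libraries above all cKO libraries, beside 10.6% of all genes, and 0 lay the other way, beside 9.65%. At an unadjusted p in edgeR 6 members (12.2%) were lower and 0 higher, beside 1.58% and 1.57% of all genes. They included Rpl30, Rpl13, Rplp0, Rpl34 and Rpl7. Without WT 2, whose Ybx1 level was lowest among the WT libraries, 0 members were lower without overlap, beside 8.93% of all genes, and 2 (Rpl7l1 and Rpl36) were higher, beside 9.56%. Of these, Rpl36 was higher at an unadjusted p, beside 1.44% of all genes higher and 1.60% lower. The median log2 fold change of the members was -0.14 without WT 1, 0.06 without WT 2, 0.04 without cKO 1, -0.10 without cKO 2 and -0.07 without cKO 3. With WT 1 and cKO 1 left out together, a choice made after seeing the data, 19 members (38.8%) were lower without overlap, beside 19.4% of all genes, and 0 higher, beside 18.5%. At an unadjusted p 6 were lower and 0 higher, beside 3.74% and 3.60% of all genes, and the difference in summed CPM was -1124. With WT 2 and cKO 3 left out together the difference was 31.0 CPM.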

How the data were processed

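Total RNA was extracted with Trizol by the authors, and mRNA libraries were made and sequenced from WT and cKO cortex, with 3 libraries of each. The submitters' processing notes name HISAT2 2.2.1, Bowtie2 2.4.5 and RSEM 1.3.1 and the builds GRCm38 and mm10. The strand setting and gene annotation are not given in the sources used here. The deposited table holds estimated counts, TPM and FPKM per gene and library, made by the authors. The averages by genotype that the authors added were not used. The effective length of a gene was computed from its deposited FPKM and estimated counts, over libraries with an FPKM of at least 1. Table columns named Ctrl were taken as the libraries labelled WT, by their replicate numbers.

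Estimated counts, of which 10.9% were not whole (14.4% for members), were rounded. In R 4.3.3, edgeR 4.0.16 was run on the whole table with TMM factors, filterByExpr (minimum count 10, minimum total 15), a quasi-likelihood fit on genotype alone and Benjamini-Hochberg adjustment, at a threshold of 0.05. CPM values are TMM-normalised, and the log2 CPM used for deviations had a prior count of 2. Intervals and limits at 0 counts (3 counts per library) cover counting or replicate error only. DESeq2 1.42.0, limma 3.58.1 (voom, and log2(TPM + 1)), other scaling, other filters and left-out libraries were alternatives. The procedure was also run on simulated data in which each gene varied independently. That run does not bear on members that move together across libraries.

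Members named with every library's value were the 4 highest by mean TPM, the 5 lowest by unadjusted p, the P stalk, the 5S RNP, and the paralogs with their parents. Other members were named after their values were seen, and 1 tested member, included in all counts, is not reported by name here. For other lists at most 4 genes with the lowest unadjusted p were eligible. The members and lists were chosen with earlier results of these data known. The study describes 3 independent replicate experiments on cKO embryos and control littermates, but not how many embryos a library holds or which libraries share a litter, so p-values measure the spread between these samples. The replicate numbers of the labels are not stated to mark a litter or day.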

Additional observations from a re-analysis of the deposited data

How the results depend on the processing

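In all 19 alternatives run, 0 members were called at an adjusted p under 0.05. Over all tested genes at most 2 were called in either direction, in DESeq2. The sign of the log2 fold change was kept by 9 of 21 named members (Rpl13, Rpl18, Rpl22l1, Rpl30, Rpl36, Rpl7, Rpl7l1, Rplp0 and Rplp2). Leaving out single libraries moved the members at an unadjusted p from 0 to 1 higher and from 0 to 6 lower, those whose groups did not overlap from 0 to 2 higher and from 0 to 18 lower, their median log2 fold change from -0.14 to 0.06, and the difference in summed CPM from -2258 to 415. With both libraries numbered 1 left out, 6 were lower at an unadjusted p and 19 lower without overlap. With WT 2 and cKO 3 left out, 1 was higher at an unadjusted p in edgeR, beside 105 of 13346 genes higher and 141 lower. In that setting 2 were higher without overlap, for which no share over all genes was computed. Scaled to the members, 1 was higher at an unadjusted p, 4 higher and 7 lower without overlap, and the median was 0.03. On log2(TPM + 1), 1 (Rpl13) was lower without overlap, again with no share over all genes computed. Ybx1 passed with adjusted p-values under the threshold in DESeq2 (log2 fold change -3.00), with the replicate block (-2.95) and without WT 2 and cKO 3 (-3.49), and ranged from -3.28 to -2.75 without single libraries, passing without WT 2.

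The libraries share replicate numbers. Same-numbered WT and cKO libraries correlated at 0.41, 0.31 and -0.02 in their deviations from the genotype means. Correlations between libraries with unlike numbers were not computed, so these values cannot show whether the libraries were paired. With the replicate number as a block, edgeR gave 2 members higher (Rplp2 and Rpl36) and 6 lower (Rplp0, Rpl13, Rpl34, Rpl18, Rpl7 and Rpl30) at an unadjusted p, beside 3.58% and 4.6% of all genes, and 0 at an adjusted p.

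Log2 fold changes near 0 changed sign. With upper-quartile factors Rpl41 was 0.0088, Rpl11 0.011 and Rpl3 0.0036, and with TMM factors from genes other than ribosomal proteins Rpl41 was 0.0017 and Rpl11 0.0026. Rplp1 was -0.0038 without a filter, -0.0089 on log2(TPM + 1) and -0.021 with both libraries numbered 1 left out, where Rpl39 was -0.042. Scaled to the members, Rpl35 was 0.033, Rpl23a 0.044, Rpl41 0.056, Rpl11 0.067, Rpl3 0.054, Rpl10 0.010 and Rpl22 0.029. With WT 2 and cKO 3 left out, Rpl35 was 0.043, Rpl23a 0.084, Rpl41 0.082, Rpl12 0.020, Rpl5 0.0066, Rpl11 0.013, Rpl3 0.057, Rpl10 0.0080 and Rpl22 0.046. Without single libraries the ranges were -0.15 to 0.023 for Rpl10, -0.10 to 0.11 for Rpl11, -0.23 to 0.073 for Rpl12, -0.17 to 0.10 for Rpl22, -0.13 to 0.12 for Rpl23a, -0.11 to 0.11 for Rpl3, -0.15 to 0.12 for Rpl35, -0.031 to 0.12 for Rpl38, -0.13 to 0.18 for Rpl39, -0.12 to 0.087 for Rpl41, -0.20 to 0.021 for Rpl5 and -0.12 to 0.14 for Rplp1. The cause was not tested. The scaling to the members and the omission of both libraries numbered 1 were chosen after seeing the data.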
